A study of Mus musculus with 4 samples.

Results

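The transcripts of 10 genes of the absorptive colonocyte, the main epithelial cell of the colon surface, were followed in RNA of cells sorted from mouse colon as dendritic cells. The genes were Guca2a, Car1, Car4, Fabp2, Krt20, Slc26a3, Lypd8, Cyp2c55, Ces2b and Cdhr5, out of 20637 named genes on the array. They were found through the accession that the array files give for each probe, and all 10 were present, with 12 probes between them: Car1 and Car4 had 2 probes each and the other 8 genes had 1. The set was put together because several of its genes were higher on both arrays of germ-free mice. The comparison between housings is therefore a description of how the set was chosen and is given without a test.

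The study compared dendritic cells from the lamina propria of the colon, which lies beneath the epithelium, between wild-type (WT) C57BL/6J mice and mice deficient in CD300a (KO-labelled), an inhibitory receptor of myeloid cells. Each genotype was kept under specific pathogen-free (SPF) conditions, with a microbiota, or germ-free (GF), without one. Cells of 5 mice per condition were sorted by flow cytometry, and each of the 4 conditions had 1 array with 1 dye: WT SPF, KO-labelled SPF, WT GF and KO-labelled GF. The age of the mice, the gate of the sort and the way the deficiency was made were not found in the sources used here. The SPF mice were labelled female and the GF mice male, and the arrays of SPF and GF mice were on separate slides with separate scans. Housing, labelled sex, slide and scan therefore cannot be told apart. The genotypes were compared within one slide. With 1 array per condition there was no spread between replicates and no test, and every difference below is between 2 arrays.

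Absorptive colonocytes take up salt and water, exchange chloride for bicarbonate, and carry a brush border of microvilli on the side that faces the lumen. Several of the genes described here are turned on late, as cells leave the crypt and reach the surface, where the cells meet bacteria and their products. Dendritic cells take up and present antigen, and the products described here are not among those they are known for. RNA of epithelial cells can reach a lamina propria preparation with cells, fragments or free RNA. In bulk samples of this kind, fewer cells of a type and less RNA per cell cannot be told apart.

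The upstream sequences of 5 of the genes are shown because the genes were high together on the same arrays while lying on different chromosomes. Each run is the 250 bases before the RefSeq start of the gene, read 5′ to 3′ on the gene's strand, in build GRCm38.p6. The array's own design used the older build mm9, and no coordinates were carried between the builds. Promoters were found for 8 of the 10 genes, and none was found for Car1 or Ces2b. Guca2a lies at chr4:119637482-119637731 (plus strand), Slc26a3 at chr12:31437969-31438218 (plus), Krt20 at chr11:99438154-99438403 (minus), Fabp2 at chr3:122894822-122895071 (plus) and Cyp2c55 at chr19:39006769-39007018 (plus). Capitals mark matches to any of 5 short motifs bound by general or intestinal transcription factors.
Guca2a: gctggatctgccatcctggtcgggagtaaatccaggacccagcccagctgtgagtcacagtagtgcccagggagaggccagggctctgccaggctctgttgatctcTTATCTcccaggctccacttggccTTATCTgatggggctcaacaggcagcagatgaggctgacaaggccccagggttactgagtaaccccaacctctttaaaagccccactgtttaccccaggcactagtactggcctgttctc
Slc26a3: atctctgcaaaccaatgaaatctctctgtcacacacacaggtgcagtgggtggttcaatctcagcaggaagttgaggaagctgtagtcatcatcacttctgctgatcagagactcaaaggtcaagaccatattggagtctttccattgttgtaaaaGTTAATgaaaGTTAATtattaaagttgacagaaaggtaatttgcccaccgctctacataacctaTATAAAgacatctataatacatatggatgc
Krt20: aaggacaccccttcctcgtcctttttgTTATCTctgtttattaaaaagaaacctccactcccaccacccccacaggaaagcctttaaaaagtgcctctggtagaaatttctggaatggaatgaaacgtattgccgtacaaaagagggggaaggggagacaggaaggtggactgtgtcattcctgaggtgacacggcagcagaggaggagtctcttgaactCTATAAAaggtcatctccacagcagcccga
Fabp2: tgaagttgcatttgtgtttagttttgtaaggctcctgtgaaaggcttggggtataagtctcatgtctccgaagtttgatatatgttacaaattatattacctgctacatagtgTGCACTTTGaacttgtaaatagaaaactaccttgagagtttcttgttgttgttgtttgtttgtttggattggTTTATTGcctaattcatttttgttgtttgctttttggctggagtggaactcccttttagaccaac
Cyp2c55: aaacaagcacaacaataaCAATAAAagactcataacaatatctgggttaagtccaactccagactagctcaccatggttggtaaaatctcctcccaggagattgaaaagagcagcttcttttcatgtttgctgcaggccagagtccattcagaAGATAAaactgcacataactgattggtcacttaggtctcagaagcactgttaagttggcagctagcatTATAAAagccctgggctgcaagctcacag

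The motifs searched were TATAAA on the gene's strand, TTTATNG for CDX factors, CAAAGTNCA for HNF4, GTTAAT as one side of the HNF1 site, and AGATAA for GATA factors, the last 4 on both strands. CDX, HNF4, HNF1 and GATA proteins are transcription factors that act in intestinal epithelium. Positions count back from the start, with -1 the last base before it, and give the first base of the match. Krt20, Slc26a3 and Cyp2c55 had TATAAA at -29, -30 and -29, and 7.59% of 32851 mouse promoter windows of this length had that motif. The CDX motif was found in Fabp2 at -65, in Cyp2c55 at -232 and in Krt20 at -30, where it contained the TATA match, and 9.81% of all windows held it. Fabp2 had the only HNF4 match of the set, at -137, with 1.19% of all windows holding it. Slc26a3 had 2 HNF1 matches, at -94 and -84, against 6.43% of windows with at least 1. The GATA motif lay in Guca2a at -144 and -120, in Cyp2c55 at -97 and in Krt20 at -223, and in 9.99% of all windows. One of the 2 annotated starts of Lypd8 had an HNF1 match at -185 and a GATA match at -202. No match was found for Car4 or Cdhr5. The genes thus had no motif of the 5 in common. A match describes letters in a window and is not a bound site.

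Levels are given as the log2 of the background-corrected signal minus the array's own 75th percentile of that signal, so that 0 marks that percentile and each step of 1 is a doubling. Levels of different probes are not set against each other, because probes differ in how strongly they bind. A probe was called well above background by the scanner software's own flag. Where one of 2 arrays had no such call, its level is only an upper limit. The difference is then given as "at least N-fold", taken against the higher of that level and the lowest level called well above background on that array. Such a limit holds for this background correction only. Those lowest levels ran from -4.15 to -3.86. Counts of the genes of a list that were at least 2-fold higher or lower take such levels at these bounds, and medians take every level as measured unless said otherwise. The deleted gene came first as a check of the labels: Cd300a read 7.88 in WT SPF, 7.91 in KO-labelled SPF, 7.60 in WT GF and 8.05 in KO-labelled GF. The KO-labelled arrays read no lower than the WT arrays of the same housing. The sources used here do not place its 1 probe inside or outside the deleted part, which leaves the genotype labels unchecked. Between 60.1% and 65.5% of spots were well above background on each array, and no probe of the colonocyte set was saturated on any.

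Guca2a encodes guanylin, a peptide that colonocytes secrete into the lumen, where it activates guanylate cyclase C and drives salt and water secretion. Its level was -0.94 in WT SPF, -1.12 in KO-labelled SPF, 7.53 in WT GF and 7.88 in KO-labelled GF. Both GF arrays read higher than both SPF arrays, which is the contrast the set was chosen on. The difference, GF minus SPF, was 8.48 on the log2 scale in WT (356-fold) and 8.998 in KO-labelled cells (511-fold). The probe was well above background on all 4 arrays, so the transcript was also measured, at a low level, in SPF cells. Guca2b, the related peptide uroguanylin, was 3.10 higher in GF in WT cells and at least 24.0-fold higher in KO-labelled cells. Gucy2c, the receptor for both peptides, differed by only 0.90 and 1.61, from -0.51 and -0.34 in SPF to 0.38 and 1.27 in GF.

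Slc26a3 encodes the apical chloride/bicarbonate exchanger of the colon, whose loss causes chloride diarrhoea. Its level was -6.48 in WT SPF and -6.18 in KO-labelled SPF, both not well above background, and 1.87 in WT GF and 2.54 in KO-labelled GF. Slc26a3 was the only gene of the 10 with no measured level in either SPF genotype. It was at least 64.8-fold higher in GF in WT cells and at least 84.7-fold higher in KO-labelled cells. With normexp, a background correction that raises dim signals, the log2 differences were 3.71 and 4.36, below these limits. Of the other Slc26 anion transporters, 0 of 7 measured were at least 2-fold higher and 0 lower in GF in WT cells, with a median difference of 0.05. In KO-labelled cells 1 of 6 was higher and 2 lower, with a median of -0.22, from -3.65 for Slc26a6 to 2.11 for Slc26a2 among those above background on both arrays. The probes of Slc26a6 disagreed: its other 2 probes differed by -0.51 and -0.82 in that comparison. Cftr, the chloride channel that works beside these exchangers, was close to the limit of detection in GF, at -3.67 and -2.59, and was at least 1.39-fold and 2.42-fold higher than in SPF.

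Car1 and Car4 encode carbonic anhydrases, which make bicarbonate and protons from carbon dioxide; Car1 is cytosolic and Car4 is anchored on the cell surface. The brighter probe of Car1, which stands for the gene in the counts, read -1.14 in WT SPF, -2.55 in KO-labelled SPF, 6.34 in WT GF and 7.44 in KO-labelled GF. The other probe read -5.03 and -3.71 in SPF, both not well above background, and 2.73 and 3.92 in GF. Both probes were high on both GF arrays and low on both SPF arrays. The brighter probe was 7.48 higher in GF in WT cells (178-fold) and 9.998 higher in KO-labelled cells (1022-fold), and the other probe was at least 117-fold and at least 197-fold higher.

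Car4 was the gene of the set with the smallest difference, and its 2 probes did not tell the same story. The brighter one read 2.47 in WT SPF, 2.70 in KO-labelled SPF, 3.08 in WT GF and 3.85 in KO-labelled GF. The dimmer one read -2.26, -3.49, 2.53 and 3.66 in the same order, well above background on all 4 arrays. GF levels were thus above SPF levels on both probes, but the brighter probe was 0.61 higher (1.53-fold) in WT and 1.15 higher (2.22-fold) in KO-labelled cells, and the dimmer probe 4.79 (27.6-fold) and 7.14 (141-fold). Which transcript each probe detects was not used here, and the difference between the probes was not tested. Among the other carbonic anhydrases, 4 of 10 measured were at least 2-fold higher and 0 lower in GF in WT cells, with a median of 0.34. In KO-labelled cells 4 of 11 were higher and 1 lower, with a median of 0.93. Car2, a cytosolic form of colonocytes, red cells and other tissues, was the highest of those measured on both arrays, at 5.25 and 5.30.

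Car1 is also a product of red cells, so markers of that lineage are given beside it. Of 14 erythroid genes on the array, 6, 6, 8 and 10 were well above background in WT SPF, KO-labelled SPF, WT GF and KO-labelled GF, in that order. Ermap and Car2, which other cells also express, made up most of the list's summed signal. The other 12 genes summed to 1.63 and 1.76 times the 75th percentile in SPF and to 9.03 and 8.74 times in GF. In GF cells 6 of 9 measured were at least 2-fold higher and 1 lower in WT, with a median of 2.80 (2.25 at the bounds). In KO-labelled cells 6 of 10 were higher and 0 lower, with a median of 2.28 (1.09 at the bounds). With normexp the erythroid medians were 0.57 in WT and 0.49 in KO-labelled cells. Hba-a1, an alpha globin, was 2.80 and 2.38 higher. Alas2, the red cell enzyme of haem synthesis, was 1.51 lower in WT and 0.27 higher in KO-labelled cells. Klf1, Epb42 and Rhag, which define red cells and their precursors, were not well above background on any array. The list holds Car2, which colonocytes also express. The part of red cells in the Car1 levels was not tested.

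Krt20 encodes a keratin of the uppermost, mature cells of the colon epithelium. Its level was -3.53 in WT SPF, -4.22 in KO-labelled SPF (not well above background), 5.67 in WT GF and 5.67 in KO-labelled GF. The GF arrays of the 2 genotypes had nearly the same level, and both were far above the SPF arrays. The difference was 9.20 in WT cells (590-fold), the third highest of 15656 genes measured, and at least 739-fold in KO-labelled cells. With normexp the log2 differences were smaller, at 6.85 in WT and 6.93 in KO-labelled cells, the latter below that limit. The general keratins of simple epithelium were high in GF as well. Krt19 was 7.14 higher in WT and 5.46 in KO-labelled cells, Krt18 was 3.36 and 2.95 higher, and Krt8 was at least 95.4-fold higher in WT and 5.42 higher in KO-labelled cells.

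Cdhr5 encodes a protocadherin at the tips of microvilli, where it links them with its partner Cdhr2 and the scaffold protein Ush1c. Its level was -2.47 in WT SPF, -2.94 in KO-labelled SPF, 3.80 in WT GF and 4.97 in KO-labelled GF. The difference was 6.27 in WT cells (77.0-fold) and 7.91 in KO-labelled cells (241-fold). Cdhr2 was 5.01 and 5.86 higher in GF, and Ush1c at least 27.7-fold and 55.9-fold higher. Among 20 other brush border and microvillus genes, 17 were at least 2-fold higher in GF in each genotype and 0 were lower, with medians of 3.36 and 3.98 (2.51 and 3.57 at the bounds). Eps8l3 had the highest value in WT (5.68) and Cdhr2 in KO-labelled cells among those measured on both arrays. The lowest were Plin3 (0.16) and Ezr (-0.19).

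Lypd8 encodes a secreted and surface-anchored protein of the colon that binds flagellated bacteria and keeps them from the mucosa. Its level was -2.23 in WT SPF, 0.08 in KO-labelled SPF, 6.80 in WT GF and 7.77 in KO-labelled GF. The 2 SPF arrays differed more for Lypd8 than for any other gene of the set, yet both lay below both GF arrays. The difference between housings was 9.03 in WT cells (523-fold) and 7.69 in KO-labelled cells (207-fold). By the probe that stands for each gene, Lypd8 was the only one of the 10 whose GF minus SPF difference was smaller in KO-labelled than in WT cells. Bacteria are known to induce a number of epithelial defence genes. Of a list of these, 9 of 14 measured were at least 2-fold higher in GF and 1 lower in WT, with a median of 1.63. In KO-labelled cells 7 of 15 were higher and 1 lower, with a median of 1.41. The list also held Tnfrsf17, a plasma cell marker rather than an epithelial gene. Tnfrsf17 was 1.70 higher in WT, and was the 1 lower gene in KO-labelled cells, at -1.29. Saa1, an acute phase protein made by epithelium, led those measured on both arrays, at 2.88 and 4.12. Retnlb, a bactericidal goblet cell product that bacteria induce, was at -0.09 in WT.

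Fabp2 encodes the intestinal fatty acid-binding protein of the enterocyte cytosol. Its level was -0.07 in WT SPF, -0.24 in KO-labelled SPF, 7.21 in WT GF and 7.31 in KO-labelled GF, so the genotypes were close within each housing. The difference was 7.29 in WT cells (156-fold) and 7.55 in KO-labelled cells (187-fold). Fabp1, the liver form that is also abundant in the small intestine, was not well above background on any array. Fabp6, the bile acid-binding form of the ileum, was 1.02 higher in WT and 3.26 higher in KO-labelled cells.

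Cyp2c55 encodes a cytochrome P450 and Ces2b a carboxylesterase, enzymes that modify lipids and foreign compounds. Cyp2c55 read -3.21 in WT SPF, -3.40 in KO-labelled SPF, 3.87 in WT GF and 5.05 in KO-labelled GF. Ces2b read -3.31, -3.26, 3.14 and 4.20 in the same order. Both genes had SPF levels near the limit of detection that hardly differed between genotypes, and GF levels far above them. Cyp2c55 was 7.08 (135-fold) and 8.46 (352-fold) higher in GF, and Ces2b 6.46 (87.8-fold) and 7.47 (177-fold). Their families went the same way. Of the other genes of the Cyp2c and carboxylesterase families, 13 of 17 measured were at least 2-fold higher and 0 lower in WT cells, with a median of 4.32, and 17 of 19 were higher and 0 lower in KO-labelled cells, with a median of 6.21. In SPF, 10 of the 17 and 14 of the 19 were not well above background. With these set at their bounds, the medians were 2.88 and 4.02. Among the genes above background on all 4 arrays they were 0.54 and 1.62, so much of the shift rests on genes with no measured SPF level. The neighbours in the family Cyp2c65 and Cyp2c66 were at least 91.4-fold and 81.9-fold higher in WT, and at least 162-fold and 143-fold in KO-labelled cells. Ces2c was 6.05 and 7.12 higher, Ces2e was 4.92 higher in WT and at least 74.7-fold in KO-labelled cells, and Ces2a was at least 22.5-fold and 35.5-fold higher. Nr1i2, the nuclear receptor PXR that induces many such enzymes, was 2.40 higher in WT and at least 13.8-fold higher in KO-labelled cells. The broader list of xenobiotic receptors and targets was more mixed, with 5 of 14 higher and 0 lower in WT (median 0.53), and 7 of 14 higher and 3 lower in KO-labelled cells (median 1.21). Sequences of the Cyp2c and Ces2 genes are close to each other, and whether a probe also binds a relative was not tested.

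**Figure D1:**
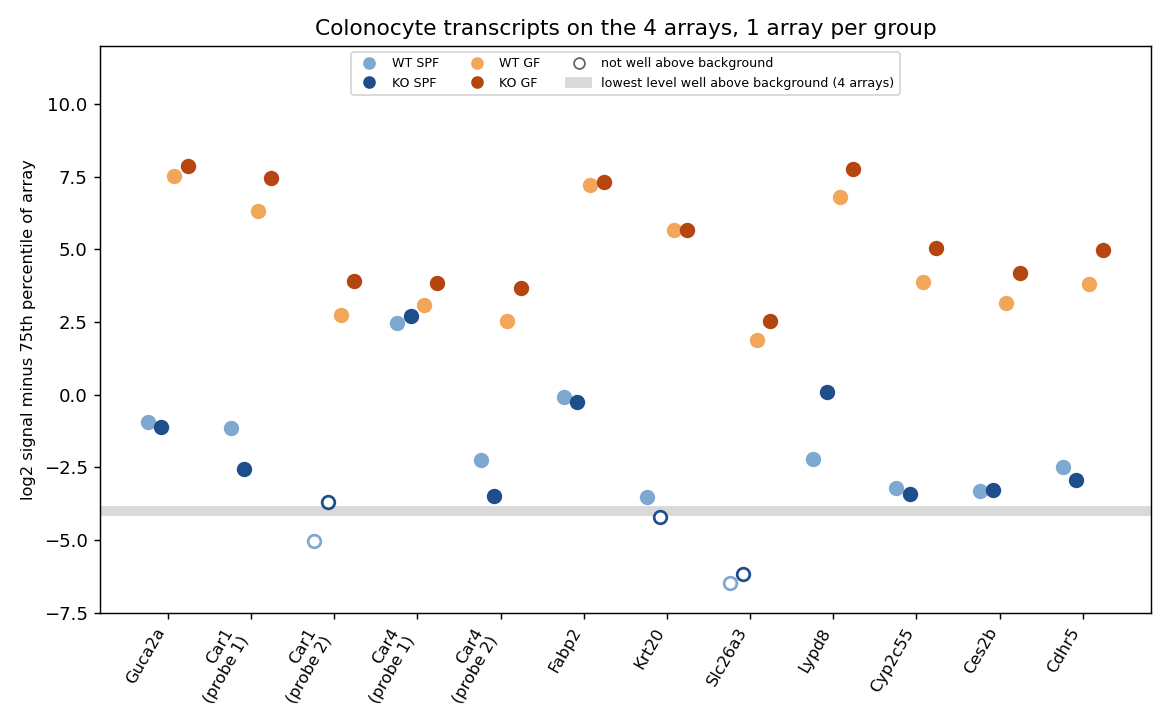
Levels of the 12 probes of the 10 colonocyte genes on the 4 arrays, as log2 signal minus the array's 75th percentile; each point is 1 array and open points were not well above background. Points of GF mice lie above those of SPF mice for every probe, from 1.87 (Slc26a3, WT GF) upwards, while in SPF only the brighter Car4 probe exceeds 0.08 (Lypd8, KO-labelled). The set was chosen on this contrast.

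In counts, 9 of the 10 genes were at least 2-fold higher in GF in WT cells and 0 were lower, against 17.5% of all 15656 measured genes that were higher and 9.44% that were lower. In KO-labelled cells all 10 were higher, against 21.6% of 15572 genes higher and 15.4% lower. Those shares of all genes take levels as measured, and at the bounds they were 15.2% and 7.68% in WT and 17.9% and 14.6% in KO-labelled cells, with the same counts for the set. Nothing is read from these counts, because this comparison chose the genes. The median difference of the set was 7.38 in WT and 8.18 in KO-labelled cells, and 7.18 and 7.80 with levels not above background set at their bounds. The median of all measured genes was 0.13 and 0.05. With normexp the medians of the set were 5.69 and 6.51. The genes lay at the far end of the distribution. Among the 20 highest differences of all genes, 5 were of the set in each genotype, and among the 100 highest, 9 were. Only Car4 fell outside, at ranks 4486 and 2912 by its brighter probe. The SD over the 10 genes was 2.47 in WT and 2.50 in KO-labelled cells. Leaving out Car4, the differences ran from 6.27 (Cdhr5) to 9.20 (Krt20) in WT, and from 7.47 (Ces2b) to 9.998 (Car1) in KO-labelled cells.

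**Figure D2:**
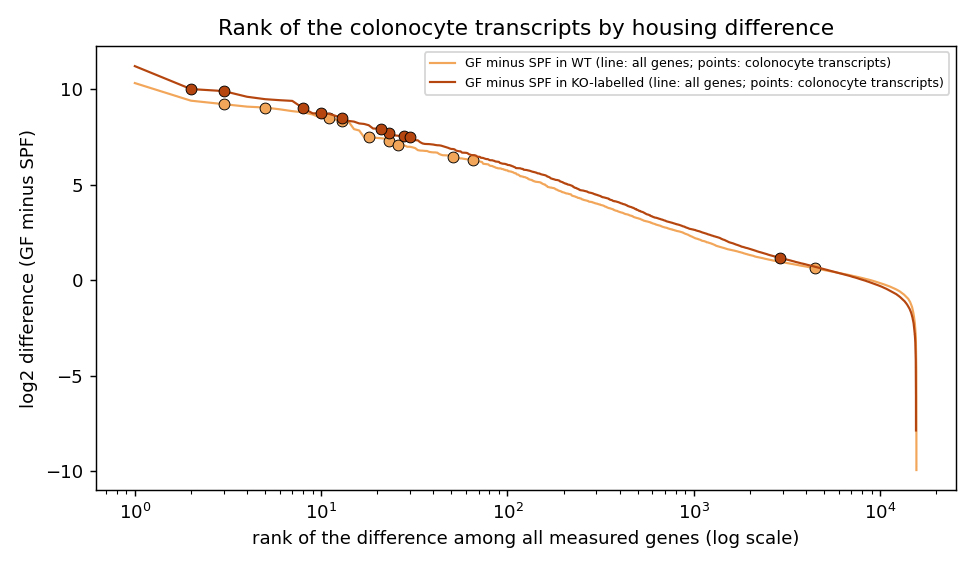
Differences GF minus SPF (log2, vertical axis) of all measured genes against their rank (log scale), in WT and KO-labelled cells; lines are all genes and points the 10 colonocyte genes, with levels not above background at their measured value. Apart from Car4 at ranks 4486 and 2912, the points lie between ranks 3 and 65 in WT and between ranks 2 and 30 in KO-labelled cells.

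Transcripts of epithelium in general and of other epithelial cell types were measured in the same RNA and are set beside the colonocyte genes. Of 29 genes of epithelium in general, 26 were at least 2-fold higher in GF in WT and 27 in KO-labelled cells, with 0 lower and medians of 4.30 and 4.35. Epcam, the adhesion molecule used to sort epithelial cells, was 4.95 and 5.24 higher, and Cdh1 (E-cadherin) at least 7.66-fold and 14.0-fold. Spint1 was the lowest, at -0.55 and -0.34. All 29 were well above background on both GF arrays, but only 17 in WT SPF and 21 in KO-labelled SPF. Their summed signal was 87.1 and 91.5 times the 75th percentile in SPF and 262.5 and 379.7 times in GF. Most of the WT SPF sum came from Pigr and Spint1, at levels of 5.96 and 3.99. Neither was higher in WT GF, at 5.81 and 3.45. The summed signal of the 10 colonocyte genes was 8.16, 9.42, 626.7 and 940.8 times. The median of the colonocyte set lay 3.08 above that of the general epithelial list in WT and 3.83 above it in KO-labelled cells.

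A list of 36 other colonocyte genes on the array, which shares no gene with the set, had a lower median than the set as well. Of these, 27 of 33 measured were at least 2-fold higher and 0 lower in WT (median 3.10), and 29 of 35 were higher and 0 lower in KO-labelled cells (median 4.28). Tspan1, a membrane tetraspanin, was the highest of those measured on both arrays, at 5.85 and 5.21. The set was picked on this difference, so its higher median is no finding of its own. Genes of the small intestinal enterocyte were above background in 3 of 18 cases on each SPF array. They were at least 2-fold higher in 10 of 13 and 11 of 14 measured, with 0 and 1 lower and medians of 3.64 and 4.08 (1.66 and 3.03 at the bounds). Among the few above background on all 4 arrays the medians were -0.21 and -0.49, so that list's shift rests on genes with no measured SPF level.

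Genes of secretory epithelial cells were next. Goblet cell genes were at least 2-fold higher in GF in 15 of 19 in WT (median 2.03) and 17 of 19 in KO-labelled cells (median 3.32), with 0 lower. Of those well above background on both arrays, Fcgbp, a mucus protein, was highest in WT at 6.44, and Zg16, a lectin of colonic mucus, in KO-labelled cells at 7.31. Enteroendocrine genes were higher in 7 of 13 and 11 of 15, with 1 lower in each, and had medians of 1.75 and 2.42. Crypt stem and progenitor genes had medians of 0.33 and 0.63, with 4 of 12 and 5 of 14 higher and 2 and 0 lower. Tuft cell genes had medians of 0.20 and 0.11, with 1 of 11 and 3 of 10 higher and 3 and 2 lower. At the bounds the goblet medians were 1.57 and 2.73 and the enteroendocrine ones stayed at 1.75 and 2.42. With normexp the medians were smaller: 1.24 and 1.91 for other colonocyte genes, 1.45 and 2.40 for brush border genes, 2.43 and 3.06 for general epithelium, 1.12 and 1.68 for goblet and 0.36 and 0.95 for enteroendocrine genes, and 0.98 and 2.27 for the Cyp2c and carboxylesterase families.

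The labelled cell type was checked on 19 genes of dendritic cells and other leukocytes. They were well above background in 19, 19, 18 and 18 of 19 cases in WT SPF, KO-labelled SPF, WT GF and KO-labelled GF; the one missing in GF was Xcr1, a receptor of one dendritic cell subset. Their summed signal was 1704, 1744, 1134 and 789.5 times the 75th percentile in that order. In GF, 1 of 19 was at least 2-fold higher and 4 lower in WT (median -0.37), and 0 were higher and 13 lower in KO-labelled cells (median -1.23). Ccr7, which guides mature dendritic cells to lymph nodes, was lowest in KO-labelled cells at -4.56. Macrophage and monocyte genes had medians of -0.14 and -0.76, with 3 of 13 and 2 of 13 higher and 1 and 3 lower. The RNA of all 4 arrays thus held transcripts of dendritic cells and of macrophages. Within each genotype, the GF array held less summed signal of both lists than the SPF array, relative to the same percentile. For macrophage and monocyte genes the sums were 1540, 1368, 1449 and 866.5 times in the order above. WT GF thus lay above KO-labelled SPF for that list, and the lowest sum was in KO-labelled GF. Both GF arrays held more summed signal of the general epithelial and colonocyte genes than both SPF arrays. The part of epithelial carry-over in the colonocyte levels was not tested.

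**Figure D3:**
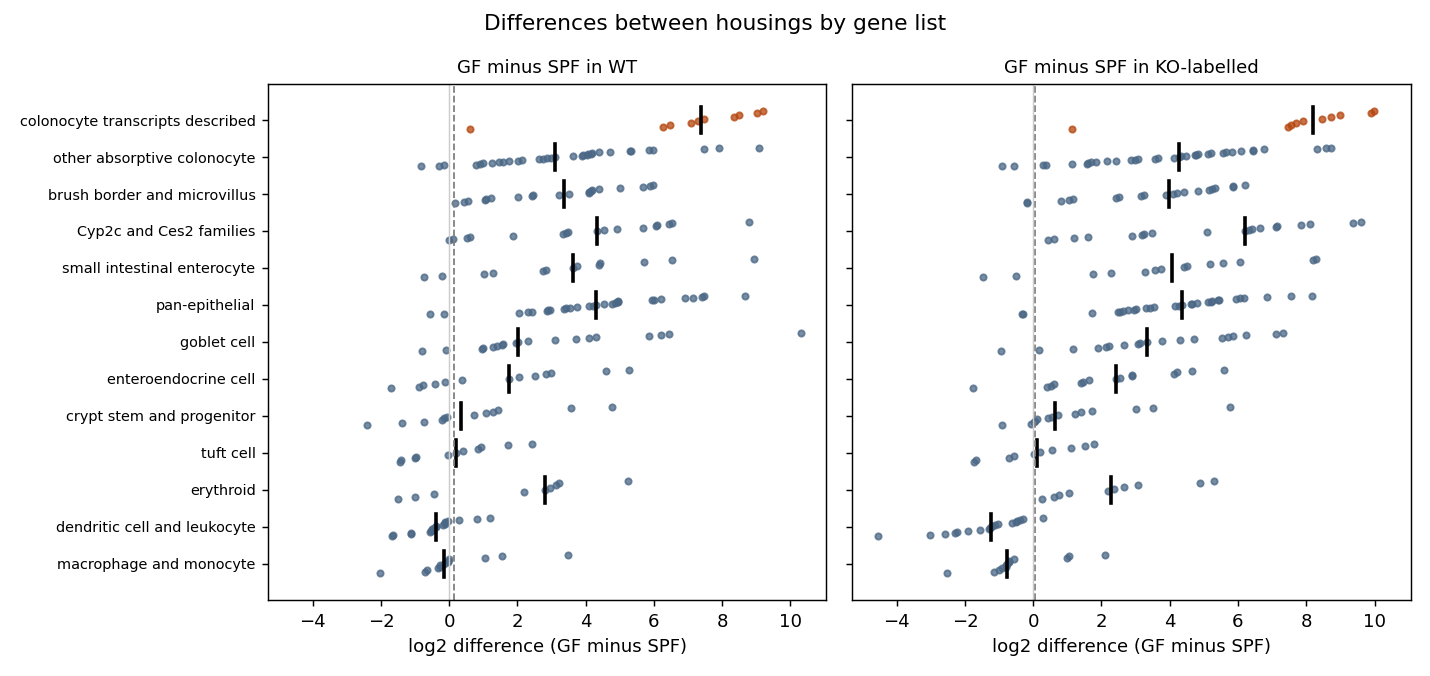
Differences GF minus SPF (log2, horizontal axis) of the 10 colonocyte genes (top row) and of the genes of 12 other lists, in WT (left) and KO-labelled cells (right); each point is a gene at its measured value, black bars are list medians, and the dashed line is the median of all genes. Medians go from 7.38 and 8.18 for the colonocyte genes through 4.30 and 4.35 for general epithelium to -0.37 and -1.23 for dendritic cell and leukocyte genes.

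The comparison of genotypes was not used to choose the genes. In GF mice, 4 of the 10 colonocyte genes were at least 2-fold higher in KO-labelled than in WT cells and 0 were lower, against 8.8% of 15697 measured genes that were higher and 7.77% that were lower (6.99% and 6.47% at the bounds). These were Cyp2c55 (1.19 on the log2 scale, 2.28-fold), Cdhr5 (1.18, 2.26-fold), Car1 (1.11, 2.15-fold) and Ces2b (1.06, 2.09-fold). Lypd8 at 0.97 and Car4 at 0.77 followed, and Slc26a3 stood at 0.67. Guca2a differed by 0.35, Fabp2 by 0.09 and Krt20 by -0.003. The 3 genes nearest to 0 have different roles, a secreted peptide, a lipid carrier and a keratin. The second probe of Car1 gave 1.19 and that of Car4 gave 1.13, so both genes had a probe past 2-fold. The differences of the set ran from -0.003 to 1.19, with an SD of 0.45 over the 10 genes. Their median was 0.87, against -0.20 for all genes.

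That count depended on how the 2 arrays were scaled. It was 6 with quantile normalization, cyclic loess or the values deposited as a table, 5 with normexp, and 0 with each array centred on its median, where no gene of the set passed 2-fold. The median of all genes moved to -0.43 with median centring and to 0.08 in the deposited values, and the split of all genes into higher and lower moved from 8.8% and 7.77% to 5.75% and 16.0%, and to 14.6% and 3.64%. A constant shift of this kind leaves the distance between the set and all genes in place, and relative to the median of all genes the set's median was 1.07 higher.

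Medians of other epithelial lists between the genotypes in GF ran from 0.04 for tuft cell genes to 1.41 for enteroendocrine genes. Of the tuft cell genes, 0 of 11 were at least 2-fold higher and 1 was lower. Crypt stem and progenitor genes had a median of 0.74 (1 of 14 higher, 0 lower). Small intestinal enterocyte genes had a median of 1.31 (8 of 14 higher, 1 lower). The list of epithelium in general had a median of 0.75, with 7 of 29 at least 2-fold higher and 0 lower, and Cdx2, a transcription factor of intestine, highest at 1.62. Other colonocyte genes had a median of 0.89 (12 of 35 higher, 1 lower), brush border genes 0.83 (9 of 20 higher, 0 lower) and goblet cell genes 0.90 (8 of 19 higher, 1 lower). The Cyp2c and carboxylesterase families had a median of 1.16 (12 of 19 higher, 0 lower), and enteroendocrine genes 1.41 (11 of 15 higher, 0 lower), with the gut hormone Pyy at 4.19 the highest of those above background on both arrays. The set's median of 0.87 lay 0.12 above that of general epithelium. Dendritic cell and leukocyte genes had a median of -0.76 (0 of 18 higher, 4 lower), macrophage genes -0.81 (0 of 13 higher, 3 lower) and endothelial genes -1.07 (0 of 14 higher, 6 lower). Their part in the differences of the colonocyte genes was not tested.

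In SPF mice, among the 9 colonocyte genes well above background on at least 1 SPF array, 1 was at least 2-fold higher in KO-labelled cells and 1 lower, against 5.61% and 6.61% of 14877 genes (4.75% and 3.97% at the bounds). Lypd8 was the higher one, at 2.30 (4.94-fold), rank 178 of all measured genes. Car1 was the lower one, 1.42 lower by its brighter probe (2.67-fold). The lower Car1 level rested on that probe, since the other was not well above background on either SPF array. The dimmer Car4 probe was 1.22 lower while the brighter one was 0.23 higher. Krt20 was at least 1.25-fold lower, being above background in WT only. The other genes measured in both lay between -0.47 (Cdhr5) and 0.05 (Ces2b). The median was -0.17, against -0.06 for all genes. With normexp the Car1 difference was -0.61 and that of Lypd8 1.16, so the call for Car1 ended.

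Genes of general epithelium had a median of 0.77 in this comparison, with 7 of 22 measured at least 2-fold higher in KO-labelled cells and 0 lower. Krt19, at 2.29, was the highest of those above background on both arrays. The median of the colonocyte set, -0.17, lay below that of general epithelium and close to that of all genes, -0.06. Other colonocyte genes had a median of -0.10, with 2 of 22 higher and 0 lower, and goblet cell genes -0.14, with 2 of 16 higher and 1 lower.

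The genotype differences in GF and SPF were set side by side for each gene. The difference of differences, GF minus SPF, was 2.52 for Car1, 1.64 for Cdhr5, 1.38 for Cyp2c55 and 1.01 for Ces2b, and -1.34 for Lypd8. For Car4 it was 0.54 by the brighter and 2.35 by the dimmer probe, and for the dimmer Car1 probe it was -0.14, with its SPF levels not above background. The rest lay between 0.26 (Fabp2) and 0.69 (Krt20, whose KO-labelled SPF level was below background). With 4 arrays this quantity has no replicate and was not tested.

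**Figure D4:**
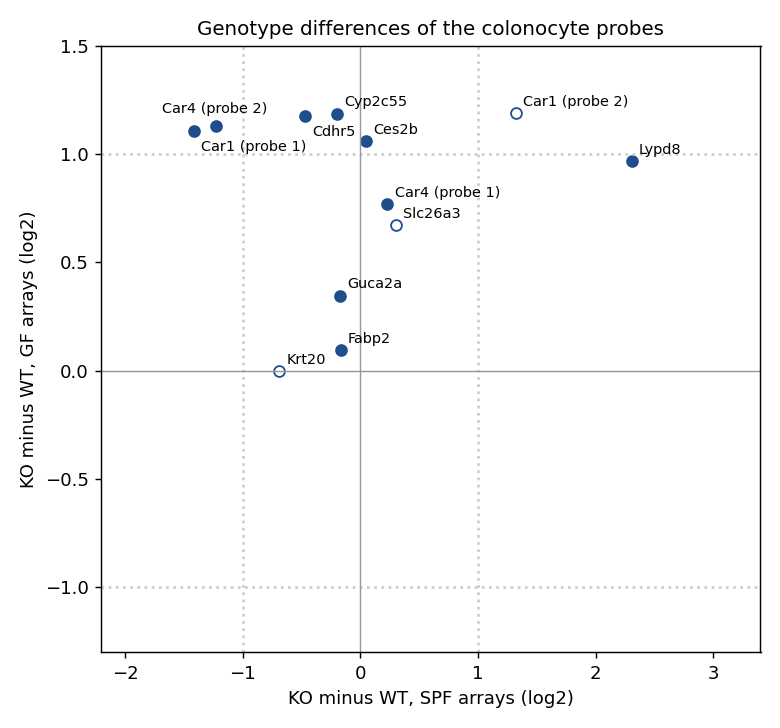
Differences KO minus WT (log2) of the 12 colonocyte probes on the SPF arrays (horizontal axis) and on the GF arrays (vertical axis); open points had an SPF level not well above background, and dotted lines mark 2-fold. The GF differences lie between -0.003 and 1.19, while those in SPF run from -1.42 (brighter Car1 probe) to 2.30 (Lypd8), with the dimmer Car4 probe at -1.22.

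Genes with the most similar pattern were then named by a fixed rule. Each gene's 4 levels were centred on their own mean, and the distance to the median of the 10 centred colonocyte profiles was computed for 15019 other genes well above background on at least 2 arrays. The nearest were Aqp8 (0.49), an aquaporin of the colonocyte surface, and Tmigd1 (0.64), an adhesion molecule of epithelium. Sult1b1 (0.79), a sulphotransferase, and Cdh17 (0.82), the liver-intestine cadherin, came next. Tmem45b (0.90), Spink1 (0.90), Akr1c19 (0.91), 1810065E05Rik (0.92), Gm10639 (0.997) and Dpep1 (1.06) completed the 10. Within the set, Cyp2c55 was nearest to the median profile at 0.41 and Car4 was farthest at 7.03. Aqp8, for example, read -4.96 and -4.82 in SPF, both not well above background, and 2.52 and 3.77 in GF. Aqp8 and Gm10639 each had a second probe with a smaller difference, 4.29 and 3.81 in WT. Of the 10 neighbours, only Spink1 had a level above background in SPF, in WT. A likeness over 4 arrays rests mainly on the housing difference that chose the set.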

How the data were processed

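Expression was measured on 4 single-colour Agilent mouse arrays, 1 per condition. The authors' scanner files hold intensity values, and per the file headers Feature Extraction 10.10.1.1 (protocol GE1_1010_Sep10) subtracted background to give the processed signal used here; per the labels' protocols the RNA was amplified and labelled with Cy3. From that signal, the 3671 control spots and 144 to 215 flagged spots per array were left out, spots of 1 probe were averaged, and the log2 value minus the array's 75th percentile was taken, where that percentile was a signal of 163 to 215. Of 55597 probes, 27191 were named through their accession, giving 20637 genes, and 28406 had no name here; for a gene with several probes the one with the highest mean level stood for it. A gene counted as measured in a comparison if well above background on at least 1 of its 2 arrays (14423, 13797, 14852 and 15055 genes were above background in WT SPF, KO-labelled SPF, WT GF and KO-labelled GF), and a difference of at least 2-fold was called. The code that makes the calls was tested on simulated data with planted changes. That tests the code and not the reliability of the calls on these 4 arrays. No p-value was computed, since each condition had 1 array, and their number limits the precision.

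The authors' deposited table of intensity values equalled the processed signal times 1 constant per array (8.30, 8.24, 7.08 and 7.96), with medians of 237.2, 216.3, 235.7 and 331.4; the rule behind the constants is unknown. It was used as an alternative, beside quantile normalization, cyclic loess, median centring, normexp on median signals (limma 3.58.1, R 4.3.3, offset 50), a stricter filter, the mean of all probes, flagged spots kept and a 1.5-fold threshold. The use of the other Car1 and Car4 probe, and levels not well above background taken at their bounds, were added after seeing the data. Cftr, kept in the list with the Slc26 genes, was counted apart from them.

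Besides the 10 genes, 22 lists of 387 symbols were used (366 matched, 1 through a synonym). From each, the highest and lowest gene above background on both arrays could be named, besides the 10 genes of most similar profile and partners of the members named beforehand. Genes named because they were not well above background (Xcr1, Klf1, Epb42 and Rhag) were chosen after their values were seen. So was Pigr, named for its share of a summed signal. The members and lists were chosen with earlier results of these data known. Promoter sequences are from RefSeq (GRCm38.p6).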

Additional observations from a re-analysis of the deposited data

Results flagged for a closer look

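The brighter probe of Car1, the cytosolic carbonic anhydrase, differed between KO-labelled and WT cells in opposite directions in the 2 housings: -1.42 on the log2 scale under SPF and 1.11 under GF. The dimmer probe of Car4, the surface-anchored carbonic anhydrase, did the same, with -1.22 under SPF and 1.13 under GF. Each value compares 2 arrays, and the difference between the housings was not tested. The other probe of Car1 was not well above background on either SPF array and gave 1.19 under GF, and the brighter Car4 probe gave 0.23 and 0.77.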

How the results depend on the processing

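No paired analysis was possible because each condition had 1 array and the labels carry no replicate numbers, and no replicate could be left out. Over the alternatives tried, 130 of 137 medians and counts of the colonocyte set stayed close to the reported value and 7 moved; of 352 values of single members, 324 stayed, 27 moved and 1 reversed (10 changed sign in all, the others without a 2-fold call); and of 880 list medians, 827 stayed, 50 moved and 3 reversed. With normexp, the set's GF minus SPF median was 5.69 in WT and 6.51 in KO-labelled cells. The count of members at least 2-fold higher in KO-labelled GF cells was 0 with median centring and 7 at a threshold of 1.5-fold. The count lower in KO-labelled SPF cells was 0 with normexp, 0 with the mean of all probes and 2 at 1.5-fold. Car1 reversed in that comparison, to 1.32, with its other probe, which was not well above background there. The median of small intestinal enterocyte genes reversed among genes above background on all 4 arrays, to -0.21 (GF minus SPF, WT), -0.49 (KO-labelled) and -0.23 (KO minus WT, GF), where few genes were left. Scaling moved the share of all genes at least 2-fold higher and lower in KO-labelled GF against SPF from 21.6% and 15.4% to 29.6% and 9.64% in the deposited table and to 16.6% and 22.5% with median centring. Signals near background in SPF limit every ratio that rests on them.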
